A study of Mus musculus with 2 samples.

Results

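The Hox genes were read in skin tumours that ultraviolet B (UVB) light had raised on the backs of male mice, with 1 array for the P2ry6-/- genotype and 1 array for the wild type (WT, P2ry6+/+). P2ry6 encodes a receptor for the nucleotide UDP. Members were the non-control probes whose gene name on the array was Hoxa, Hoxb, Hoxc or Hoxd followed by digits alone. Reported here are 49 probes of 37 genes, out of 37321 gene names on the array, with 10 genes in the Hoxa cluster, 10 in Hoxb, 8 in Hoxc and 9 in Hoxd. The rule used no measured value.

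Per the labels, 20 pairs of mice were 2 months old at the start, and both genotypes received the same UVB course on shaved dorsal skin. The dose was 180 mJ/cm2 during the first 10 weeks, was then stepped up weekly by 10 mJ/cm2 to 300 mJ/cm2 at week 22, and was held there to week 40. The strain, the exact alteration of the P2ry6 locus and the number of tumours or mice behind each RNA sample are not given in the sources used here. Bulk tumour RNA was amplified from 0.2 µg. In bulk RNA a lower signal from fewer cells of a type and one from less RNA per cell cannot be told apart.

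With 1 array per genotype there was no replicate and no test between genotypes. Differences are P2ry6-/- minus WT on the log2 scale, and "2-fold" means at least 1 log2 unit in size. Each array was set to its own 75th percentile. On a scale set by 8 spike-in RNA probes every difference was 0.53 lower, and the median of all genes was -0.58 in place of -0.06, so signs are relative to the bulk of the genes. Both arrays lay on 1 slide and were read in 1 scan. The share of non-control spots well above background was 57.9% on the P2ry6-/- array and 57.8% on the WT array. Repeat spots of a probe differed with an SD of 0.12 log2, over 293 probes, and different probes of a gene with an SD of 0.38 log2, over 6731 genes. P2ry6 itself had signals of 318 and 835 at its 2 probes on the array labelled P2ry6-/-, against 137 and 364 on the array labelled WT. The targeted gene was thus 2.44-fold higher on the P2ry6-/--labelled array, against its label. A probe outside a deleted stretch checks nothing, so "P2ry6-/- array" and "WT array" below mean the arrays so labelled, and every direction rests on those labels. Of the markers of skin cells, 8 of 8 for basal keratinocytes and 13 of 15 for fibroblasts were well above background on both arrays.

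Hox genes encode homeodomain transcription factors that give cells their place along the head-to-tail axis of the embryo. They lie in 4 clusters, and the order of the genes in a cluster, counted as paralog numbers from the 3′ end, follows the order in which they are switched on from head to tail. Adult skin keeps part of this pattern, mainly in dermal fibroblasts, so that the Hox genes in use differ between skin of the trunk, the limbs and the tail. In what follows, paralogs 1 to 3 are called anterior, 4 to 8 central and 9 to 13 posterior.

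The probes behind the differences are shown first, because 1 probe of 60 bases stood for most Hox genes and each value is only as specific as its probe. The first 30 bases of each probe are given as in the array files, in lower case with no part marked, and positions are on mm9. Hoxa5 (chr6:52152049-52152108, minus strand) and Hoxa7 (chr6:52165626-52165685, minus) are in the Hoxa cluster. Hoxc4 (chr15:102867213-102867272, plus), Hoxc6 probe 1 (chr15:102842033-102842093, plus), Hoxc6 probe 2 (chr15:102842243-102842302, plus) and Hoxc9 (chr15:102814735-102814794, plus) are in the Hoxc cluster. Hoxb7 (chr11:96151412-96151471, plus) is shown as a member that differed little. No exon or untranslated region annotation of mm9 was used here. The longest run of bases shared by probes of different Hox genes was 12, between Hoxc12 and Hoxd10. Probes were compared with each other and not with transcripts, so this does not show which other RNAs a probe could bind.
Hoxa5: gtgtaattaatgctgttgtagaggtgactt
Hoxa7: gacagttggaaaagcgtctttaagagactc
Hoxc4: ataaagaattttagtgttgatgtgaaatgc
Hoxc6 probe 1: tcgaacgtgaccgtttctgtgtgaatattt
Hoxc6 probe 2: cctcctgtataaatccgacctctggatccg
Hoxc9: tgcaaactcttgcgatgtgggagggttaag
Hoxb7: ggtcctattcacgagcctctttttgtatat

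The set of Hox genes above background was compared first. Of the 37 genes, 20 were well above background on both arrays, 1 (Hoxc5) on the WT array alone, and 16 on neither. None of the 37 genes was above background on the P2ry6-/- array alone. Of the 49 Hox probes, 27 were above background on both arrays, 1 on the WT array alone and 21 on neither, so that 98% had the same call on both. Over all non-control probes, 94.1% had the same call on both arrays and 53.0% were above background on both, so the Hox share of like calls lay near that of all probes. With a stricter filter on dim probes (2 log2 units above the lowest level called well above background), 9 Hox genes passed on both arrays and 5 on one array alone.

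Among the genes reported here, those detected ended at paralog 9. The 11 reported genes of paralogs 10 to 13 were well above background on neither array: Hoxa10, Hoxa11, Hoxa13, Hoxb13, Hoxc10, Hoxc11, Hoxc12, Hoxd10, Hoxd11, Hoxd12 and Hoxd13. In the embryo these shape the lumbar and sacral spine, the outer limb segments, the digits and the urogenital tract. Their 12 probes read 3.54 to 9.02 on the P2ry6-/- array and 3.57 to 11 on the WT array, where the dimmest spots called well above background read 17.4 on the P2ry6-/- array and 17.7 on the WT array. Such a reading gives only an upper limit and does not show that the transcript was absent.

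Central paralogs were the most fully detected. Of their 15 genes, 14 were above background on both arrays and the remaining one, Hoxc5, on the WT array. Among the 7 anterior genes, 3 were detected on both arrays and 4 on neither (Hoxa2, Hoxb1, Hoxd1 and Hoxd3), genes that pattern the hindbrain, the neural crest and the neck. In the posterior group of 15, the 3 detected on both arrays were Hoxa9, Hoxb9 and Hoxc9, all of paralog 9, whose family acts in patterning the thoracic skeleton. Hoxd9 was not well above background on both arrays, with 6.63 on the P2ry6-/- array and 20.5 on the WT array.

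**Figure D1:**
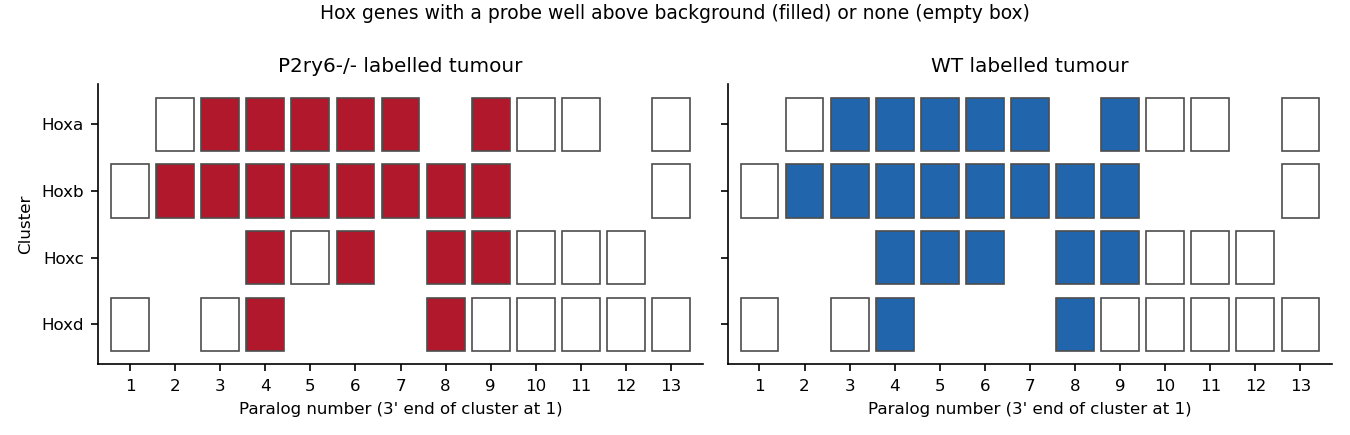
Hox genes by cluster (rows) and paralog number (columns, 3′ end at 1) on the P2ry6-/--labelled array (left) and the WT-labelled array (right). A filled box is a gene with a probe well above background and an empty box a gene with none; positions without a box are not drawn, and at this threshold the grids differ at Hoxc5 alone (at 5 genes with the stricter filter on dim probes).

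The clusters differed in how many of their reported genes were detected. In Hoxb, 8 of 10 genes were above background on both arrays, an unbroken run from Hoxb2 to Hoxb9. In Hoxa it was 6 of 10, from Hoxa3 to Hoxa9. Hoxc had 4 of 8, with Hoxc5 added on the WT array. Hoxd had 2 of 9, Hoxd4 and Hoxd8. By probe, 80% were above background on both arrays in Hoxb, 46.7% in Hoxa, 55.6% in Hoxc and 30% in Hoxd. Over all non-control probes it was 53.0%, so Hoxa and Hoxc lay near the share of the whole array. The clusters also differ in probes per gene.

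Of the 20 Hox genes with a value on each array, 3 (15%) were at least 2-fold lower on the P2ry6-/- array and 0 were at least 2-fold higher. The same shares over the 19872 genes that both arrays measured were 5.04% lower and 4.82% higher. Among the 15518 genes whose mean level lay inside the range of the measured Hox genes, the shares were 5.12% lower and 5.74% higher. The 3 genes were Hoxa5, Hoxc4 and Hoxc6. With normexp background correction Hoxa5 and Hoxc6 fell short of 2-fold, at -0.75 and -0.98. With the stricter filter 9 Hox genes were left and 0 of them were 2-fold apart. Hoxa5, Hoxc4 and Hoxc6 did not pass that filter on the P2ry6-/- array, so it removed them and did not compare them. On the spike-in scale 7 genes passed, with Hoxa3, Hoxa4, Hoxa7 and Hoxc8 added. Differences fell on both sides of 0. Of the 20 differences, 10 were below 0 (50%), against 54.9% of all genes, and the median over the 20 was 0.03, against -0.06 over all genes. With Hoxc5 entered at its bound, the median over 21 genes was 0.00.

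Levels of the 27 measured Hox probes on the P2ry6-/- and the WT array correlated at r = 0.866, against 0.973 over all measured probes. These are correlations across probes of the same pair of arrays, which are not independent replicates, and the Hox probes cover a narrower range of levels.

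**Figure D2:**
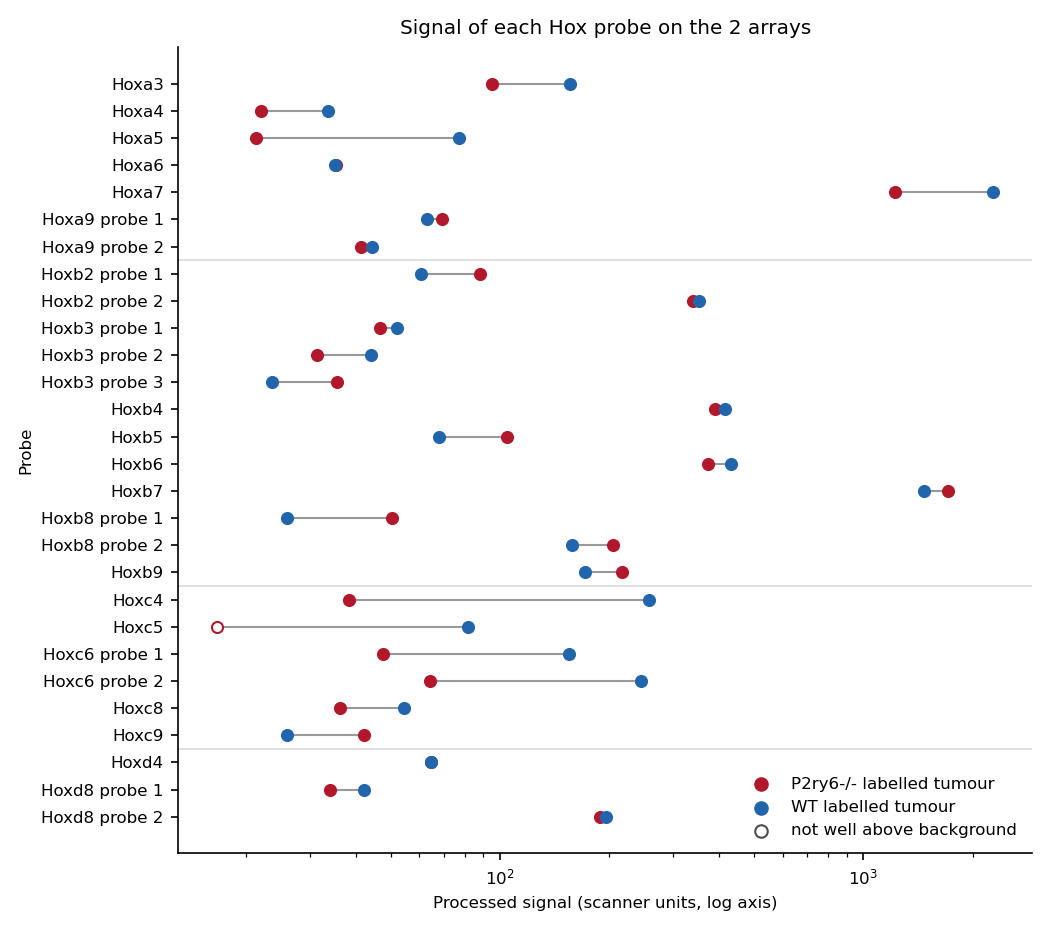
Processed signal (scanner units, log axis) of each Hox probe above background on at least 1 array, in cluster order, with the P2ry6-/--labelled array in red and the WT-labelled array in blue. An open point is a signal not well above background; the widest gaps are at Hoxc4, Hoxc5, Hoxa5 and Hoxc6, all toward the WT-labelled array.

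Among the genes reported here, Hoxc held the widest differences, at its 3′ end. Hoxc4, a factor for thoracic vertebrae and the muscle of the oesophagus, read 38.4 on the P2ry6-/- array, against 256 on the WT array. This was 6.30-fold lower on the P2ry6-/- array (difference -2.65, with an SD of 0.26 from the scanner software's error model). No other Hox gene reported here and measured on both arrays was as far apart.

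Next along the cluster, Hoxc5 had a signal of 16.6 on the P2ry6-/- array, not well above background, against 81.4 on the WT array. Its level was at least 4.41-fold lower on the P2ry6-/- array, where the bound sets the WT level against the dimmest level called well above background on the P2ry6-/- array. A bound of at least 2-fold was found for 24.4% of the 1090 genes seen on the WT array and not on the other. No share is given here for a bound as large as 4.41-fold.

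Hoxc6, which marks thoracic levels and is used in mammary and limb development, was read by 2 probes. Probe 1 read 47.8 on the P2ry6-/- array, against 154 on the WT array, a difference of -1.61. Probe 2 read 64.3 on the P2ry6-/- array, against 244 on the WT array, a difference of -1.84. Both probes were lower on the P2ry6-/- array, with a mean difference of -1.72 ± 0.16 (SD of 2 probes), or 3.30-fold. The probes lie close together and share their RNA samples, so they are not replicates.

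Toward the 5′ end Hoxc8 was closer between the arrays and Hoxc9 lay above 0, each read by 1 dim probe. Hoxc8, which sets lower thoracic identity in the skeleton and motor neurons, read 36.3 on the P2ry6-/- array, against 54.4 on the WT array (difference -0.50, scanner SD 0.27). Hoxc9 read 42.2 on the P2ry6-/- array, against 25.9 on the WT array (difference 0.79, scanner SD 0.31). Neither reached 2-fold. In 3′ to 5′ order the Hoxc series was thus -2.65 for Hoxc4, at least 4.41-fold lower for Hoxc5, -1.72 for Hoxc6, -0.50 for Hoxc8 and 0.79 for Hoxc9. The cluster's median was -1.11 over its 4 measured genes and -1.72 with Hoxc5 at its bound.

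Among the Hoxa genes reported, the furthest apart was Hoxa5, which is needed for lung and for vertebrae at the neck-to-thorax boundary. It read 21.3 on the P2ry6-/- array, against 77.2 on the WT array. It was 3.42-fold lower (difference -1.77, scanner SD 0.32), and its P2ry6-/- signal lay near 17.4, the dimmest signal called well above background there.

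The other Hoxa genes did not reach 2-fold. Hoxa7, whose human counterpart represses a cross-linking enzyme of the differentiating keratinocyte, read 1218 on the P2ry6-/- array, against 2277 on the WT array (difference -0.82, 1.76-fold). Hoxa3, needed for the thymus and parathyroid, read 94.8 on the P2ry6-/- array, against 156 on the WT array (difference -0.63), and 2 further Hoxa3 probes were not well above background on both arrays. Hoxa4, a cervical vertebra gene, read 22.0 on the P2ry6-/- array, against 33.5 on the WT array (difference -0.52).

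Hoxa6 and Hoxa9 were level between the arrays within the spread between probes of a gene. Hoxa6 read 35.4 on the P2ry6-/- array, against 35.2 on the WT array (difference 0.09). Hoxa9, best known in blood progenitors, had a mean difference of 0.10 ± 0.17 (SD of 2 probes), with signals of 69.1 and 41.5 on the P2ry6-/- array, against 63.0 and 44.4 on the WT array. One further Hoxa9 probe was not well above background on both arrays. The Hoxa median was -0.58 over 6 genes, 4 of them below 0 and 1 of them at least 2-fold lower.

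Hoxb went the other way in direction but not past the threshold. None of its 8 measured genes was 2-fold apart, 6 of 8 differences were above 0, and the median was 0.31, or -0.21 on the spike-in scale. Hoxb7, studied in human tumours for its effect on growth factors, read 1705 on the P2ry6-/- array, against 1467 on the WT array (difference 0.30). Hoxb5 read 105 on the P2ry6-/- array, against 68.1 on the WT array (difference 0.70). Hoxb9 read 217 on the P2ry6-/- array, against 171 on the WT array (difference 0.43). A second Hoxb9 probe was not well above background on either array, with 19.8 on the P2ry6-/- array and 4.83 on the WT array.

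Some Hoxb genes had probes that differed among themselves. Hoxb8, known in mice for its effect on grooming, averaged 0.75 ± 0.42 (SD of 2 probes). Its probe 1 read 50.5 on the P2ry6-/- array, against 25.9 on the WT array (difference 1.05), and its probe 2 read 205 on the P2ry6-/- array, against 158 on the WT array (difference 0.46). The gene mean stayed under the threshold, although 1 of the 2 probes passed it.

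For Hoxb2, which acts in the facial motor nucleus of the hindbrain, 1 probe lay on the strand opposite to the cluster. That probe read 87.9 on the P2ry6-/- array, against 60.5 on the WT array (difference 0.62). The probe on the gene's own strand read 339 on the P2ry6-/- array, against 353 on the WT array (difference 0.03). The Hoxb2 mean of 0.33 (SD 0.42 over the 2 probes) thus joins both strands. Without the opposite-strand probe the Hoxb median was 0.19.

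Hoxb4, Hoxb6 and Hoxb3 hardly differed. Hoxb4, used to expand blood stem cells, read 391 on the P2ry6-/- array, against 415 on the WT array (difference 0.00 after each array was set to its own 75th percentile). Hoxb6, active in limb and lateral mesoderm, read 373 on the P2ry6-/- array, against 433 on the WT array (difference -0.13). Hoxb3 averaged 0.07 ± 0.55 over 3 probes that did not share a sign, with signals of 46.7, 31.4 and 35.6 on the P2ry6-/- array, against 51.9, 44.0 and 23.6 on the WT array.

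The Hoxd genes hardly differed. Hoxd4, a cervical vertebra gene, read 64.7 on the P2ry6-/- array, against 64.5 on the WT array (difference 0.09). Hoxd8 averaged -0.10 ± 0.18 (SD of 2 probes), with 34.1 and 188 on the P2ry6-/- array, against 42.2 and 196 on the WT array. The Hoxd median over these 2 genes was -0.01.

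Read by position and not by cluster, the medians were 0.07 over the 3 anterior genes, -0.11 over the 14 central genes and 0.43 over the 3 posterior genes. Their signs were not stable: the anterior median was -0.30 with the stricter filter on dim probes and -0.07 with the brightest probe per gene, the central one 0.01 with the stricter filter, and the anterior and posterior ones were -0.45 and -0.10 on the spike-in scale. The 3 genes past 2-fold, Hoxa5, Hoxc4 and Hoxc6, were all central, as were 14 of the 20 measured genes. The counts were 3 of 14 central, 0 of 3 anterior and 0 of 3 posterior genes, and groups of 3 are too small to compare. The 3 posterior genes lay between 0.10 and 0.79, and none reached 2-fold. Within paralog group 4, Hoxa4, Hoxb4 and Hoxd4 differed by -0.52, 0.00 and 0.09, beside -2.65 for Hoxc4. Paralog group 5 held -1.77 for Hoxa5 and 0.70 for Hoxb5, beside at least 4.41-fold lower for Hoxc5. Paralog group 6 held 0.09 for Hoxa6 and -0.13 for Hoxb6, beside -1.72 for Hoxc6. Paralog group 8 held 0.75 for Hoxb8 and -0.10 for Hoxd8, beside -0.50 for Hoxc8. In paralog group 9 the Hoxc gene was the highest of those measured, with 0.79 for Hoxc9 beside 0.10 for Hoxa9 and 0.43 for Hoxb9.

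**Figure D3:**
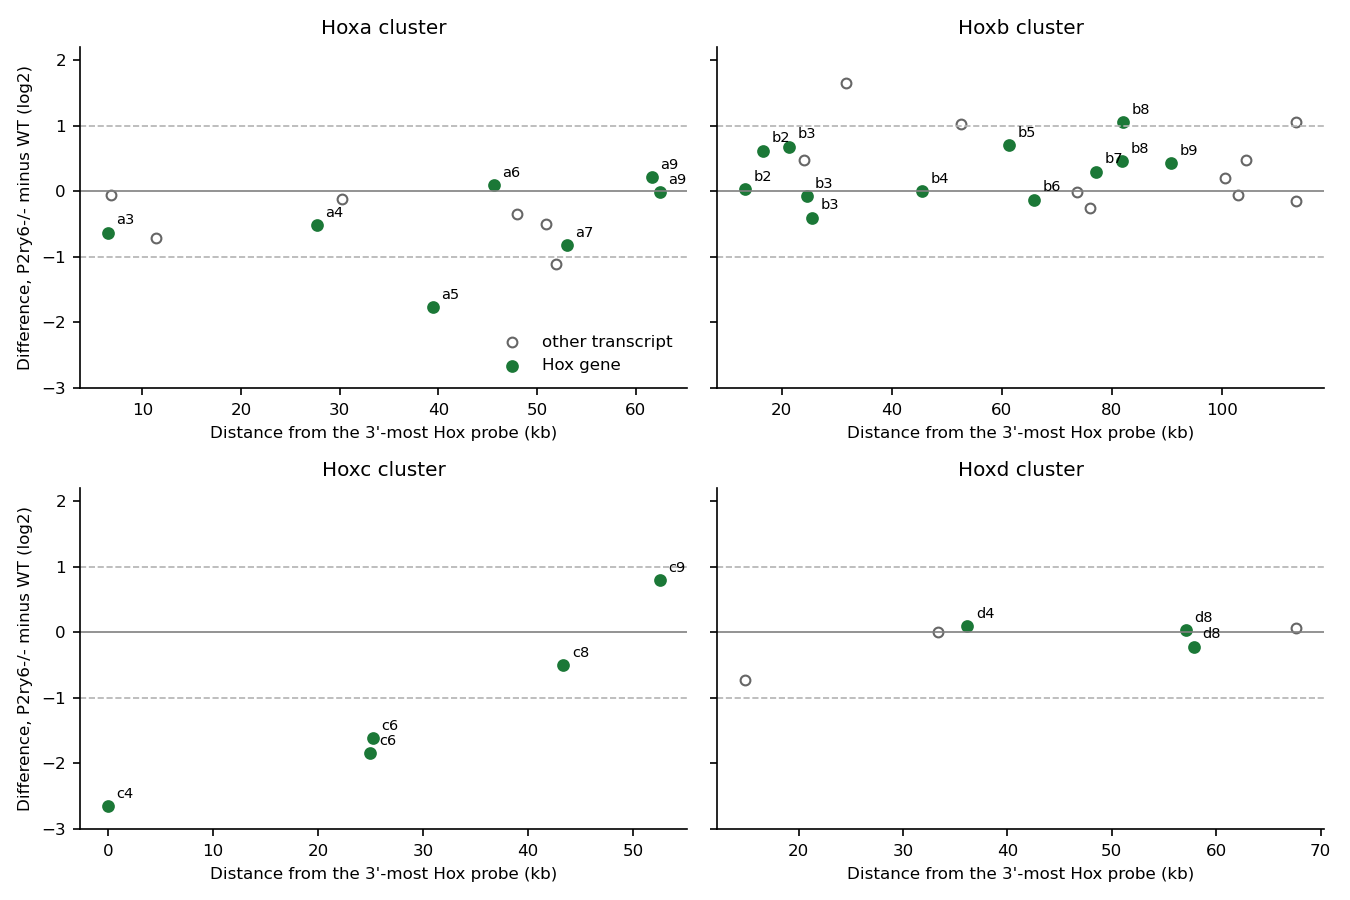
Difference (P2ry6-/- minus WT, log2) of each probe measured on both arrays against its distance (kb) from the 3′-most Hox probe of its cluster. Filled points are Hox probes and open points other transcripts inside the cluster; dashed lines mark 2-fold. Hoxc runs from -2.65 at Hoxc4 to 0.79 at Hoxc9, and Hoxc5, which has a bound alone, is not drawn.

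Other transcripts inside the clusters were read by 33 probes, 19 of them measured on both arrays, of which 1 was at least 2-fold lower and 3 at least 2-fold higher on the P2ry6-/- array. Those shares stand beside the 5.04% and 4.82% of all genes. In Hoxa, all 6 measured probes were below 0, with a median of -0.42. Mira, a non-coding RNA between Hoxa6 and Hoxa7 (chr6:52164490-52164549, minus strand, mm9), read 1094 on the P2ry6-/- array, against 2504 on the WT array, and was 2.16-fold lower on the P2ry6-/- array (difference -1.11). Halr1, a non-coding RNA beyond the 3′ end of the Hoxa cluster, read 32.6 on the P2ry6-/- array, against 75.5 on the WT array (difference -1.13).

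In Hoxb, 10 of 12 such probes were measured, 3 of them at least 2-fold higher, with a median of 0.34. Gm11536, on the opposite strand between Hoxb4 and Hoxb3, read 92.9 on the P2ry6-/- array, against 31.5 on the WT array (difference 1.65, 3.13-fold higher). A probe for a long non-coding RNA between Hoxb13 and Hoxb9 (chr11:96114981-96115040, minus strand, mm9) read 1708 on the P2ry6-/- array, against 866 on the WT array (difference 1.06). The plus-strand probe for the same interval read 78.4 on the P2ry6-/- array, against 92.4 on the WT array (difference -0.15). A plus-strand probe for an overlapping interval differed by -0.05. Another probe for a long non-coding RNA, between Hoxb5 and Hoxb4 (chr11:96175970-96176029, plus strand, mm9), read 499 on the P2ry6-/- array, against 261 on the WT array (difference 1.02). A further probe between the same genes (chr11:96174180-96174239, plus strand, mm9) read 37.1 on the P2ry6-/- array, against 14.6, not well above background, on the WT array, and was at least 2.22-fold higher on the P2ry6-/- array. The medians of the other transcripts in Hoxa and Hoxb were thus on the same side of 0 as those of the Hox genes around them, on the 75th percentile scale.

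In Hoxc and Hoxd few other transcripts could be read. HOTAIR, the antisense RNA of the 5′ Hoxc cluster, was not well above background, with 3.65 on the P2ry6-/- array and 3.55 on the WT array. Hoxd3os1, a non-coding RNA on the opposite strand between Hoxd8 and Hoxd4, read 35.9 on the P2ry6-/- array at 1 of its 2 probes, against 3.49, not well above background, on the WT array, and was at least 2.16-fold higher on the P2ry6-/- array. Its second probe was not well above background on both arrays. Among the 1012 genes seen on the P2ry6-/- array and not on the other, 22.6% had a bound of at least 2-fold. Haglr, the antisense RNA beside Hoxd1, read 62.8 on the P2ry6-/- array, against 110 on the WT array (difference -0.73).

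Genes that work with the Hox genes or set them were mostly less than 2-fold apart, with Pcgf2 the 1 exception among those measured in 4 lists. Most genes on the array were also less than 2-fold apart, with 4.82% higher and 5.04% lower. Hox cofactors of the Pbx, Meis and Pknox families, which bind DNA together with Hox proteins, had 7 of 9 genes measured and 0 past 2-fold in either direction (median 0.02). Meis1 was the furthest apart at 0.67 ± 0.50 (SD over its probes), with mean signals of 319 on the P2ry6-/- array and 236 on the WT array. Pbx4 and Pknox2 were not well above background on both arrays.

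Polycomb proteins, which keep unused Hox genes silent, were all measured (18 of 18), with 1 at least 2-fold higher, 0 lower and a median of 0.16 (-0.08 with no filter on dim probes). The 1 was Pcgf2, a Polycomb ring finger protein, at 1.18 ± 0.67 (SD of 2 probes), with mean signals of 143 on the P2ry6-/- array and 81.7 on the WT array. Ezh2, the methyltransferase of the complex, differed by 0.70 ± 0.15. Of 10 trithorax and H3K27 demethylase genes, which keep active Hox genes on, 0 were 2-fold apart (median -0.07, and 0.04 after quantile normalization). Of the upstream inputs, the Cdx factors Cdx1, Cdx2 and Cdx4 were not well above background on both arrays, and Rara, Rarg, Rxra and Rxrb, receptors of the retinoic acid pathway, differed by 0.53, -0.57, -0.16 and 0.13.

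Promoter sequence was read for the Hox genes found in the RefSeq promoter table (24 promoters of 22 of the 37 genes). The 4 shown are 250 bases before the start of Hoxc4 and Hoxa5, which were lower, of Hoxa7 next to Mira, and of Hoxb4, which was level. Capitals mark a match, on either strand, to the Cdx motif TTTATG, the retinoic acid receptor repeat unit AGGTCA (in capitals as its reverse complement where it lies on the other strand), the GC box GGGCGG or the Pbx-Hox motif TGATNNAT. Coordinates are on GRCm38.p6: Hoxc4 chr15:103034145-103034394 on the plus strand, Hoxa5 chr6:52204588-52204837 on the minus strand, Hoxa7 chr6:52218574-52218823 on the minus strand and Hoxb4 chr11:96318017-96318266 on the plus strand.
Hoxc4: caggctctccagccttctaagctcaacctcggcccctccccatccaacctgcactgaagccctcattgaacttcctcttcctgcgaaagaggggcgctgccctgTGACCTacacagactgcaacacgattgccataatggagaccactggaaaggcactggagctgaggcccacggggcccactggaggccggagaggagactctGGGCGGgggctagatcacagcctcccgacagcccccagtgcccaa
Hoxa5: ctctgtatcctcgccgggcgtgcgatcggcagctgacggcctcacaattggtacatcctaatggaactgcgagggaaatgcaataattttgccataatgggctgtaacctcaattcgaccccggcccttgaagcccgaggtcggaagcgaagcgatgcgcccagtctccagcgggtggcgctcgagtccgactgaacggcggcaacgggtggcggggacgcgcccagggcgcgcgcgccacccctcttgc
Hoxa7: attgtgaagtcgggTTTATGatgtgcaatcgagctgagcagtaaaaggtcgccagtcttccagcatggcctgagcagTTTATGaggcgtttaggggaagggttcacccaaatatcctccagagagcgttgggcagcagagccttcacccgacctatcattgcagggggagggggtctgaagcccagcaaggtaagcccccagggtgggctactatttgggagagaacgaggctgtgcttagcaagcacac
Hoxb4: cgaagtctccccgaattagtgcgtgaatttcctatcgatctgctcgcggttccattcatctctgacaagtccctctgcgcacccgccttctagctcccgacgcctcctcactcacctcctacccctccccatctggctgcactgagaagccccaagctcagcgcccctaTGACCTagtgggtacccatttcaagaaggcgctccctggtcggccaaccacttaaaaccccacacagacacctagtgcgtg

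Hoxa7 held 2 Cdx motifs, Hoxc4 held 1 repeat unit and 1 GC box, Hoxb4 held 1 repeat unit, and Hoxa5 held none of the 4 motifs. The repeat unit was found before Hoxc4, which was lower, and before Hoxb4, which was level. The part of these motifs in the differences was not tested. No marked matches overlapped in these windows. Of the 24 Hox promoters, 5 held a Cdx motif, 6 the repeat unit, 10 a GC box and 4 a Pbx-Hox motif. Among all 32851 promoters of this length, the shares were 10.8% for the Cdx motif, 14% for the repeat unit, 32.7% for the GC box and 7.68% for the Pbx-Hox motif. A match is a string of letters and no evidence of binding.

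Markers of the tumours' cell types also differed. The counts below stand beside 5.04% of all measured genes at least 2-fold lower and 4.82% at least 2-fold higher. Sebaceous gland markers had 8 of 8 measured and 8 at least 2-fold lower on the P2ry6-/- array, with a median of -4.36 and summed signals of 2399 on the P2ry6-/- array and 60164 on the WT array, led by Fa2h, Awat1, Elovl3 and Far2 of lipid synthesis. Suprabasal and cornified keratinocyte markers had 6 of 8 at least 2-fold lower (median -1.49), with summed signals of 141388 on the P2ry6-/- array and 356999 on the WT array, led by Tgm3, Casp14, Dsg1a and Krt1. These cells differentiate from basal keratinocytes, whose own markers had a median of 0.03 (-0.09 with the brightest probe per gene), with 1 of 8 at least 2-fold higher (Krt5, a basal keratin) and summed signals of 473427 on the P2ry6-/- array and 379338 on the WT array.

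Fibroblasts are where skin mainly keeps its Hox pattern. Fibroblast markers had 13 of 15 measured and a median of 0.21 (-0.08 with the brightest probe per gene and -0.32 on the spike-in scale), with 1 at least 2-fold higher (Dpt, a dermal matrix protein), 0 lower and 2, Twist1 and Mfap5, above background on the WT array alone. Their summed signals were 48746 on the P2ry6-/- array and 54023 on the WT array. Smooth muscle and pericyte markers had 4 of 6 at least 2-fold higher (median 1.06), with summed signals of 23687 on the P2ry6-/- array and 8781 on the WT array, led by the contractile genes Tagln and Acta2. Macrophage markers had 3 of 7 higher and 1 lower (median 0.82), with sums of 4456 on the P2ry6-/- array and 2539 on the WT array. Hair follicle markers had 2 of 9 higher and 4 lower (median -0.99), with sums of 2512 on the P2ry6-/- array and 3219 on the WT array. Mast cell markers had 4 of 6 lower (median -1.65), with sums of 1688 on the P2ry6-/- array and 4261 on the WT array, and melanocyte markers 3 of 4 lower (median -2.30), with sums of 293 on the P2ry6-/- array and 1551 on the WT array. Of the defining markers in these lists, Krt25 of the hair follicle, Cd163 of macrophages and Tyr and Tyrp1 of melanocytes were above background on the WT array alone, and Des of smooth muscle on the P2ry6-/- array alone. The medians of the remaining lists (neutrophil, T and NK cell, B and plasma cell, endothelial, skeletal muscle, adipocyte, Schwann and neural) lay between -0.83 and 0.12. With the stricter filter on dim probes the B and plasma cell median was 1.89 in place of -0.69, the adipocyte median 0.02 in place of -0.83 and the Schwann and neural median 0.19 in place of -0.19. With no filter the adipocyte median was 0.04. The part of these cell types in the lower Hoxa5, Hoxc4, Hoxc5 and Hoxc6 signals was not tested.

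**Figure D4:**
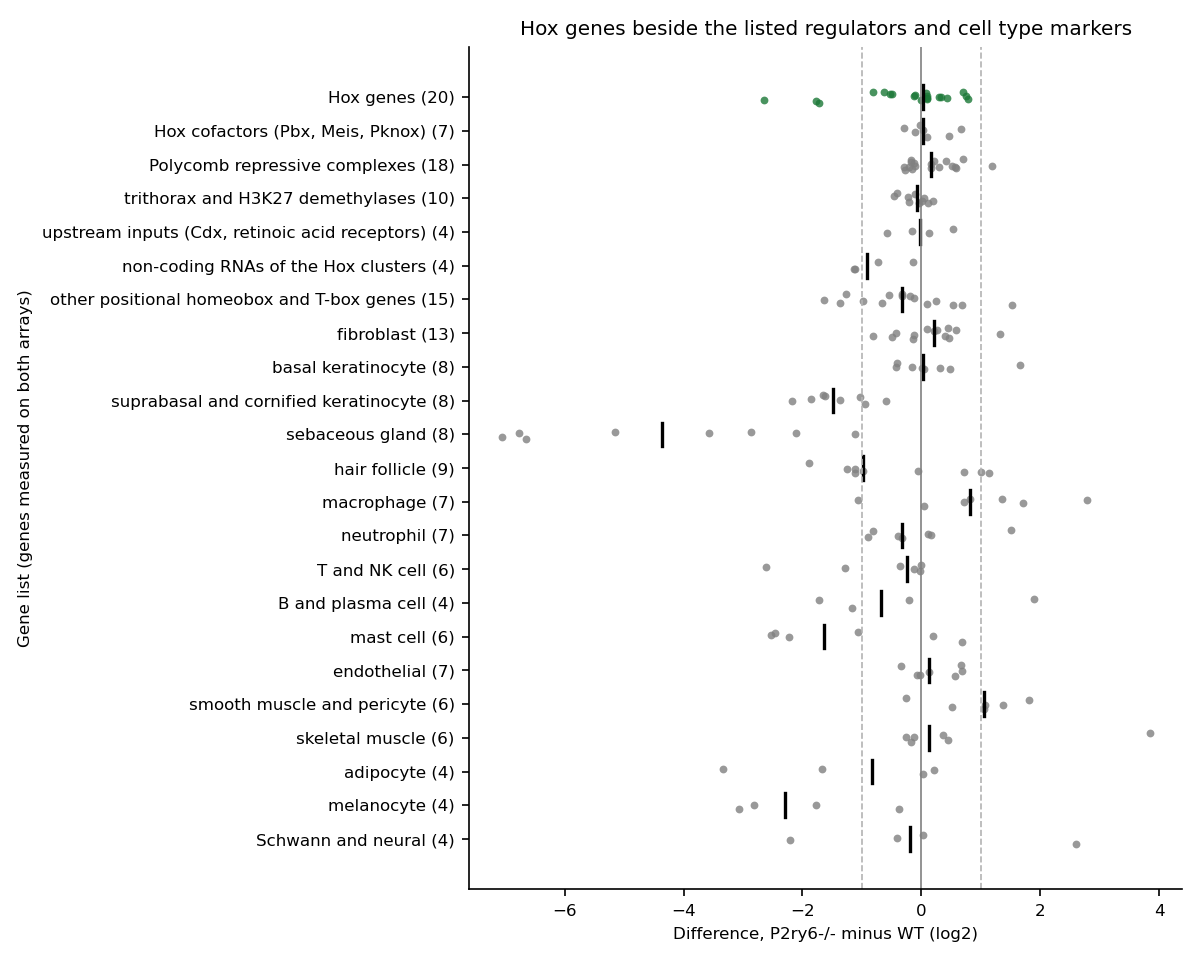
Difference (P2ry6-/- minus WT, log2) of every gene measured on both arrays in each list, with the number of genes in brackets, a black bar at the median and dashed lines at 2-fold. On the 75th percentile scale the Hox genes (green) have a median of 0.03 with 3 genes below -1, while sebaceous gland markers centre on -4.36.

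Homeobox and T-box genes outside the clusters, listed for a part in body position, were read in the same way. Whether their signals reflect position in these tumours was not tested. Of 33 listed, 15 were measured on both arrays, with 1 at least 2-fold higher, 3 at least 2-fold lower and a median of -0.33. Over all 19872 genes measured on both arrays, 4.82% were higher and 5.04% lower by that threshold. Tbx2, a T-box repressor of limb and other tissues, read 281 on the P2ry6-/- array, against 104 on the WT array (difference 1.52). Pitx1, a determinant of hindlimb identity, read 1444 on the P2ry6-/- array, against 4744 on the WT array (difference -1.63). Dlx2, a factor of the jaw and forebrain, read 58.1 on the P2ry6-/- array, against 159 on the WT array (difference -1.37). Irx3, an Iroquois factor of spinal cord and limb, read 1637 on the P2ry6-/- array, against 4174 on the WT array (difference -1.27).

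Of the limb regulators in that list, Tbx5 and Tbx4, which mark forelimb and hindlimb, and En1, which marks ventral limb skin, were not well above background on both arrays. In all, 12 of the 33 were not well above background on both arrays, 4 were well above background on the WT array alone and 1, Tbx18, on the P2ry6-/- array alone, and Otx2 was so on both arrays through different probes and was not compared. Over the whole array, 1090 genes were seen on the WT array alone and 1012 on the P2ry6-/- array alone. Emx2, a gene of the scapula and forebrain, read 13.1 on the P2ry6-/- array, not well above background, against 54.4 on the WT array, and Lhx2, a hair follicle stem cell factor, read 6.2, not well above background, on the P2ry6-/- array, against 30.5 on the WT array.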

How the data were processed

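Total RNA of 1 UVB-induced skin tumour sample per genotype was hybridised to single-colour Agilent arrays. The authors extracted spot intensity with Agilent Feature Extraction 10.7.1.1, per the submitters' processing notes. The intensity used is the processed signal, background-subtracted and detrended per the file headers. A deposited log2 table of the same arrays matched the log2 processed signal at r = 0.9997 (P2ry6-/-) and 0.9999 (WT) over 56594 probes. Once sorted, its columns were no more than 0.00104 apart (median 4.96), so the table is log2 and equal in distribution between arrays; the sources used here do not give its method. It was used as an alternative.

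Each array had 62976 spots, and its 59305 non-control ones read 56605 probes. Outlier spots were left out (105 on P2ry6-/-, 102 on WT), which removed 11 probes, and no spot was saturated. Probes were set to log2 signal minus its array's 75th percentile (327 on P2ry6-/-, 347 on WT). A gene was the mean of its probes that the scanner software marked well above background on both arrays. A gene above background on 1 array had a bound against the dimmer array's lowest level so marked, or its own if higher. RefSeq accessions (GRCm38.p6) named 32988 probes, and 23606 kept the name in the array file. Probe positions are on mm9 per the file headers.

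Apart from the Hox genes not reported here, every member was reported. So were list members at least 2-fold apart (at most 4 per list by size, and cell type lists mainly by their counts) and other cluster probes at least 2-fold apart. Further genes named for their role were picked with values known. The members and lists were chosen with earlier results of these data known. Some Hox genes and sequences are not reported here. With 1 array per genotype no test was run, and the number of arrays limits the precision. The alternatives were normexp correction (offset 50), quantile and loess normalization, a spike-in scale (8 probes), no filter or a stricter filter (2 log2 units above the lowest level) on dim probes, the authors' table, the brightest probe per gene and, chosen after seeing the data, leaving out the Hoxb2 probe of the opposite strand. On simulated data of 20985 genes, the calling step recovered 200 of 200 changed genes with 0 false calls. The changes were set at 2 log2 units, with the SD between repeat spots (0.12) as the only noise. This outcome follows from those settings, so it checks the code and gives no error rate for the 2-fold calls. R 4.3.3, limma 3.58.1 (normalization only), Python 3.11.15, pandas 2.3.3 and numpy 2.4.6 were used.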

Additional observations from a re-analysis of the deposited data

How the results depend on the processing

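Quantile and loess normalization, the authors' table, the brightest probe and leaving out the opposite-strand Hoxb2 probe each called 3 Hox genes lower and 0 higher; Hoxa5, Hoxc4 and Hoxc6 were those called in all of them. Normexp correction called 1 lower (Hoxc4), with medians of -0.23 (Hoxa), -0.58 (Hoxc) and 0.30 (posterior). The spike-in scale, which moves every difference by -0.53 and the median of all genes to -0.58, called 7 lower, with medians of -0.49 over all Hox genes, -1.10 (Hoxa), -0.21 (Hoxb), -1.64 (Hoxc), -0.53 (Hoxd), -0.45 (anterior), -0.64 (central) and -0.10 (posterior), so that the signs of all Hox genes, Hoxb, the anterior and the posterior genes turn; relative to all genes they do not. No filter on dim probes called 7 lower and 1 higher (Hoxb9, whose dimmer probe then enters), with medians of -0.35 (Hoxa), 0.19 (Hoxb), -0.18 (Hoxc) and 0.07 (posterior), and left 0 genes on one array alone. The stricter filter left 0 lower among 9 measured and 5 genes on one array alone, with medians of -0.72 (Hoxa), 0.17 (Hoxb), -0.30 (anterior) and 0.01 (central); no Hoxc gene passed it, so Hoxc has no value there. The Hoxb median was 0.17 and the anterior one -0.07 with the brightest probe, and the Hoxb median was 0.19 without the opposite-strand probe, the alternative chosen after seeing the data. Over these settings Hoxc4 ran between -3.18 and -1.54, Hoxa5 between -2.30 and -0.75 and Hoxc6 between -2.25 and -0.98. Over all genes, 957 higher and 1002 lower became 368 and 578 with normexp, 270 and 3760 on the spike-in scale, 2244 and 2135 without the filter, and 540 and 721 with the stricter one. The cause of these changes was not tested beyond what each setting does by construction. No paired analysis was possible because there was 1 array per genotype, and leaving out a replicate was not possible either. Dim probes limit Hoxa5, Hoxc4, Hoxc5 and Hoxc6, none of which passed the stricter filter on the P2ry6-/- array. They also limit Hoxc8 and Hoxc9, which passed it on neither array. Medians of several other gene lists turned sign too, with the values given beside them.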
